A study of Mus musculus with 2 samples.

Results

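*Cd274* and *Pdcd1lg2*, the genes of the PD-1 ligands PD-L1 and PD-L2, were followed in migratory dendritic cells (DCs) of the skin-draining lymph nodes. The members were these 2 genes, chosen by name, of the 18049 genes listed in the expression data, and both were listed in both libraries. CITEseq, which reads mRNA and DNA-barcoded surface antibodies in the same cell, had been performed on sorted MHCIIhi CD11c+ B220- cells. One library came from unimmunized (naive) B6 mice and the other from B6 mice that had received OVA plus the protease allergen papain in both rear footpads 1 day earlier. No knockout or transgene was part of either group, and the labels give neither the number, the age nor the sex of the mice, while the study's methods describe young adult mice of both sexes for all strains. The study's methods name popliteal lymph nodes as the source of the papain library but several skin-dLNs, pooled, as that of the naive one. The labels name popliteal nodes for both. If the sources were those of the methods, immunization and node site cannot be told apart. With 1 library per condition no difference was tested, and every 95% interval below covers counting error only and not the variation between mice. No antibody to PD-L1 or PD-L2 was in the panel, and all values are therefore of mRNA.

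PD-1 is an inhibitory receptor of activated T cells, and its ligands on DCs limit T cell responses. PD-L1 is made by many cell types and is well known to be induced by interferons, while PD-L2 is largely restricted to DCs, macrophages and some B cells and is induced by IL-4 and GM-CSF among others. PD-L1 also binds CD80 on the same cell, and PD-L2 also binds RGMb. Migratory DCs are the cells that carry antigen from the skin to the node and present it there to T cells.

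The 2 genes are neighbours on mouse chromosome 19. In the RefSeq annotation of GRCm38.p6, *Cd274* (gene 60533) spans chr19:29362107-29388095 and *Pdcd1lg2* (gene 58205) spans chr19:29410919-29472927, leaving 22.8 kb between them. The *Cd274* span overlaps that of *Plgrkt*, a plasminogen receptor gene, by 5.19 kb at its start, and *Ric1* follows *Pdcd1lg2* at 49.3 kb. Since both ligand genes were higher in the papain library, the 250 bases before the transcript start that RefSeq gives for each are shown, both on the plus strand, with capitals marking the matches to the motifs searched. The *Cd274* window lies inside the *Cd274* span given above and overlaps that of *Plgrkt*, which runs to chr19:29367292. The *Pdcd1lg2* window ends at the base before its gene span, so the windows are not placed alike.
*Cd274* (chr19:29367188-29367437): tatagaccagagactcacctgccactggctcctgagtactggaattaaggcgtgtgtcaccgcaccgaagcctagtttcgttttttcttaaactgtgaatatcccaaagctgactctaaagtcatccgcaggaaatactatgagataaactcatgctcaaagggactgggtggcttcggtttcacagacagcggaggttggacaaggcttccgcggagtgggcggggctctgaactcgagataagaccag
*Pdcd1lg2* (chr19:29410669-29410918): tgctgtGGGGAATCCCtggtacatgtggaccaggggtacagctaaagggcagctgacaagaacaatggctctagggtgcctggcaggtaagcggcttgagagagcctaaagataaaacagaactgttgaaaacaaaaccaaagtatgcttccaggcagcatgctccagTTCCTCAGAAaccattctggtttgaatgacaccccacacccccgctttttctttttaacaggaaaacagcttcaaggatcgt
Both strands were searched for an interferon response core (GAAANNGAAA), the spacing that STAT6 prefers (TTCNNNNGAA), an AP-1 site (TGANTCA) and the NF-kB consensus. In the *Pdcd1lg2* window the STAT6 form matched TTCCTCAGAA at 82 to 73 bases before the start, and the NF-kB consensus matched GGGGAATCCC at 244 to 235 bases before it. These matches did not overlap, and none of these motifs matched in the *Cd274* window. Among 32851 such windows of the mouse genome the STAT6 form was present in 5.85%, the NF-kB consensus in 3.90%, the interferon core in 2.98% and the AP-1 site in 6.75%. A match is a description of the letters and not a shown binding site, and the windows cover only a small part of the regulatory sequence of either gene.

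The authors' class of each cell, set from its surface antibodies, was used. The classes held 707 CD301bhi, 659 CD301bint and 658 CD301blo cDC2s, 578 cDC1s and 440 Langerhans cells (LCs) in the naive library, and 2893, 1827 and 1470 cDC2s, 235 cDC1s and 881 LCs in the papain library. CD301b, a lectin encoded by *Mgl2*, divides the cDC2s. The libraries summed to 53095046 and 122133401 UMIs (unique molecular identifiers, each counting a captured mRNA molecule), with medians of 13764 and 14738 UMIs per cell, and 2 cell barcodes occurred in both libraries. Levels are given as CPM, the UMIs of a gene per 1000000 UMIs summed over the cells of a class, with exact Poisson intervals. *Cd207*, which encodes langerin, stood at 45.7 and 58.9 CPM in naive and papain LCs, with at most 0.35 CPM in any cDC2 class and 9.16 and 5.86 CPM in cDC1s. The chemokine receptor gene *Xcr1* stood at 16.9 and 9.44 CPM in cDC1s, while in naive CD301blo cDC2s it still reached 6.94 CPM. Some other markers went the other way in naive cells. *Wdfy4* was at 42.6 CPM in CD301blo cDC2s and 11.5 CPM in cDC1s, and *Naaa* at 29.2 and 16.9 CPM. The LC marker *Ctnna1* was at 187 CPM in LCs and 268 CPM in CD301bhi cDC2s. The 8 cDC1 markers summed to 886 CPM in naive cDC1s and 458 to 643 CPM in the other naive classes. The 6 LC markers summed to 422 CPM in naive LCs and 270 to 363 CPM in the others. Naive cDC1s carried 219 CPM over the 6 T cell markers, against 12.1 to 58.5 CPM in the other naive classes and 10.2 to 28.0 CPM in the papain classes. The 7 monocyte and macrophage markers summed to 589 to 734 CPM in naive cDC2s and to 21.9 to 109 CPM in papain cDC2s, *Lyz2* making up most of it in naive cells, while *Fcgr1* was at 0 in all naive classes except CD301blo cDC2s. *Mgl2* itself, the mRNA of CD301b, stood at 15.2 to 59.1 CPM in naive cDC2s and at 0.476 to 1.21 CPM in papain cDC2s, although the classes were set by CD301b protein. Of the 7 cDC2 markers, *Mgl2* among them, only *Irf4* was higher in papain than in naive cDC2s. These markers summed to 286 to 310 CPM in naive and 131 to 154 CPM in papain cDC2s. The part of these markers in the differences between the libraries was not tested beyond the values without T cell transcripts given below.

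*Cd274* was highest in CD301bhi cDC2s of both libraries. In naive mice its level was 220 CPM (interval 211 to 229) in CD301bhi, 161 CPM (153 to 169) in CD301bint and 146 CPM (138 to 154) in CD301blo cDC2s. It was 49.5 CPM (45.1 to 54.2) in naive cDC1s and 45.2 CPM (39.6 to 51.2) in naive LCs. Thus all 3 naive cDC2 classes lay above cDC1s and LCs, and the last 2 did not differ beyond counting error (1.10-fold, interval 0.936 to 1.29). In papain-immunized mice the same gene stood at 280 CPM (276 to 285), 246 CPM (241 to 252) and 234 CPM (227 to 242) in CD301bhi, CD301bint and CD301blo cDC2s. Papain cDC1s held 161 CPM (148 to 176) and papain LCs 114 CPM (109 to 118.8). In the order of all 10 groups, the papain cDC2 classes came first and naive LCs last, and besides naive cDC1s and LCs only papain cDC1s and naive CD301bint cDC2s were neighbours whose intervals of the ratio held 1 (1.00-fold, 0.905 to 1.11).

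*Pdcd1lg2* followed another order. Its naive level was 12.3 CPM (10.3 to 14.5) in CD301bhi, 10.7 CPM (8.84 to 12.9) in CD301bint and 9.54 CPM (7.65 to 11.7) in CD301blo cDC2s, and none of these neighbours differed beyond counting error. Naive cDC1s held 6.11 CPM (4.64 to 7.90) and naive LCs 2.26 CPM (1.17 to 3.94), the last resting on 12 UMIs. In the papain library the highest level was that of cDC1s, 30.3 CPM (24.4 to 37.1). Papain cDC2s stood at 15.5 CPM (14.4 to 16.6), 16.5 CPM (15 to 18) and 18.1 CPM (16.2 to 20.2) from CD301bhi to CD301blo, and papain LCs at 6.81 CPM (5.67 to 8.12). Papain cDC1s were 1.67-fold (1.31 to 2.11) above the next group, papain CD301blo cDC2s, whereas the papain LCs, 8th of the 10 groups, were not separated from naive cDC1s (1.12-fold, 0.810 to 1.55).

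**Figure D1:**
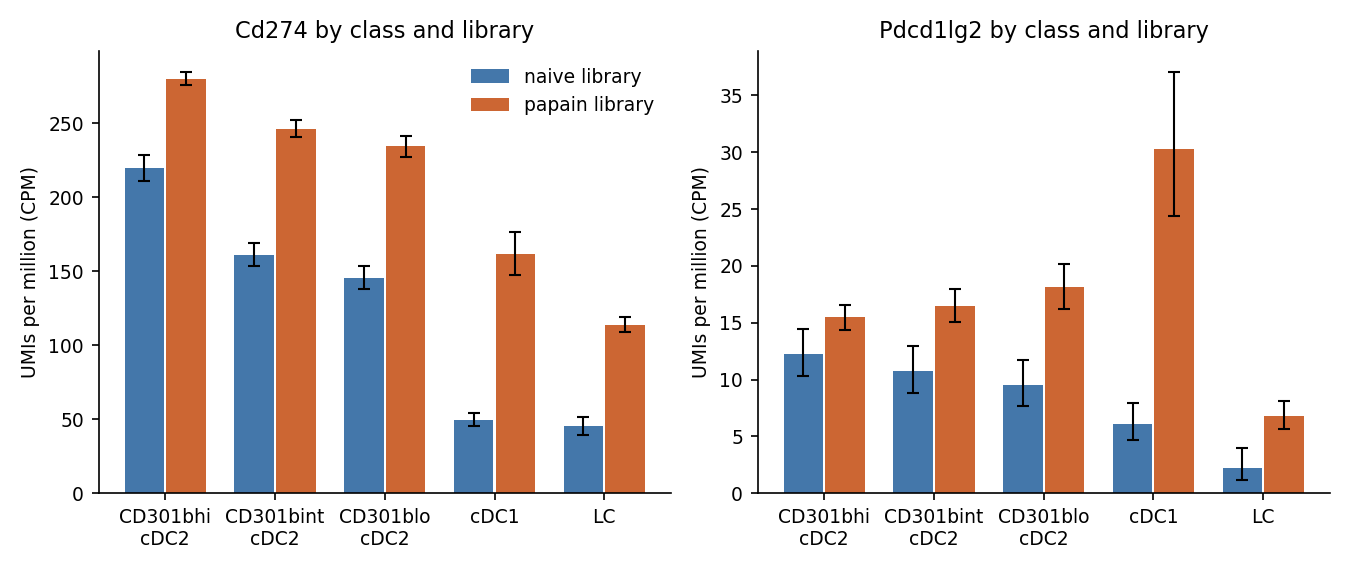
Levels of *Cd274* (left) and *Pdcd1lg2* (right) in CPM (vertical axis from 0) in the 5 DC classes, with naive (blue) and papain (orange) libraries side by side and exact 95% Poisson intervals as error bars. *Cd274* declines from CD301bhi cDC2s, 220 CPM in the naive and 280 CPM in the papain library, to LCs, whereas *Pdcd1lg2* peaks in papain cDC1s at 30.3 CPM.

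The question of how the ligand genes differed with immunization was addressed by the ratio of papain to naive cells within each class. *Cd274* was 3.26-fold higher (interval 2.87 to 3.71) in papain than in naive cDC1s and 2.52-fold higher (2.20 to 2.89) in LCs, whose median depth was 18290 UMIs in the papain and 10768 UMIs in the naive library. In cDC2s the same ratio was 1.27 (1.22 to 1.33) for CD301bhi, 1.53 (1.45 to 1.61) for CD301bint and 1.61 (1.51 to 1.71) for CD301blo cells, and cDC1s and LCs, lowest in naive mice, had the highest ratios. *Pdcd1lg2* was 4.95-fold higher (3.53 to 7.0) in papain cDC1s and 3.02-fold higher (1.67 to 6.0) in papain LCs. Its ratio in cDC2s was 1.26 (1.05 to 1.52) for CD301bhi, 1.53 (1.25 to 1.90) for CD301bint and 1.90 (1.5 to 2.43) for CD301blo cells. No interval of these 10 ratios held 1, and those of cDC1s lay above those of every cDC2 class for both genes.

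A gene was tested where 1 of the 2 groups compared reached 10 CPM. Of 7238 such genes, 2.25% were at least 2-fold higher in papain than in naive cDC1s and 4.75% lower (ratio of CPM plus 1), and both ligand genes were among them. The log2 ratio of *Cd274* in cDC1s, 1.69, was above that of 99.5% of these genes, and the 2.14 of *Pdcd1lg2* above that of 99.8%. In LCs 3.93% of 7582 genes were at least 2-fold higher and 2.27% lower, *Cd274* with a log2 ratio of 1.31 among them, while *Pdcd1lg2* did not reach 10 CPM in either library's LCs. In CD301bhi, CD301bint and CD301blo cDC2s, 1.95%, 2.19% and 2.48% of the genes were at least 2-fold higher and 3.63%, 4.36% and 5.83% lower, and neither ligand gene was. With all classes pooled 1.68% were higher and 3.38% lower, and the ligand genes, at log2 ratios of 0.79 and 0.70, were in neither group. Without the 78 naive and 11 papain cDC1s that held a *Cd3e* or *Trac* UMI, the log2 ratios in cDC1s were 1.71 and 2.22, as large as with them.

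Compared with CD301bhi cDC2s of the same library, *Cd274* was lower in naive cDC1s (0.225-fold, interval 0.204 to 0.249) and naive LCs (0.205-fold, 0.179 to 0.235), contrasts in which 7.31% and 6.32% of the tested genes were at least 2-fold lower and 6.19% and 5.4% higher. In the papain library the gap was narrower, 0.576-fold (0.526 to 0.630) for cDC1s, where 4.29% of the genes were at least 2-fold higher and 6.75% lower, and 0.406-fold (0.388 to 0.425) for LCs. *Pdcd1lg2* was 0.498-fold (0.36 to 0.681) in naive cDC1s but 1.96-fold (1.56 to 2.43) in papain cDC1s relative to CD301bhi cDC2s, although the median log2 ratio of all tested genes in the latter contrast was -0.12. In LCs it stayed below CD301bhi cDC2s in both libraries, at 0.184-fold (0.0929 to 0.332) and 0.441-fold (0.362 to 0.533). The papain values of both genes in LCs were at least 2-fold below CD301bhi cDC2s, as were 2.07% of the genes tested there, with 2.6% higher.

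**Figure D2:**
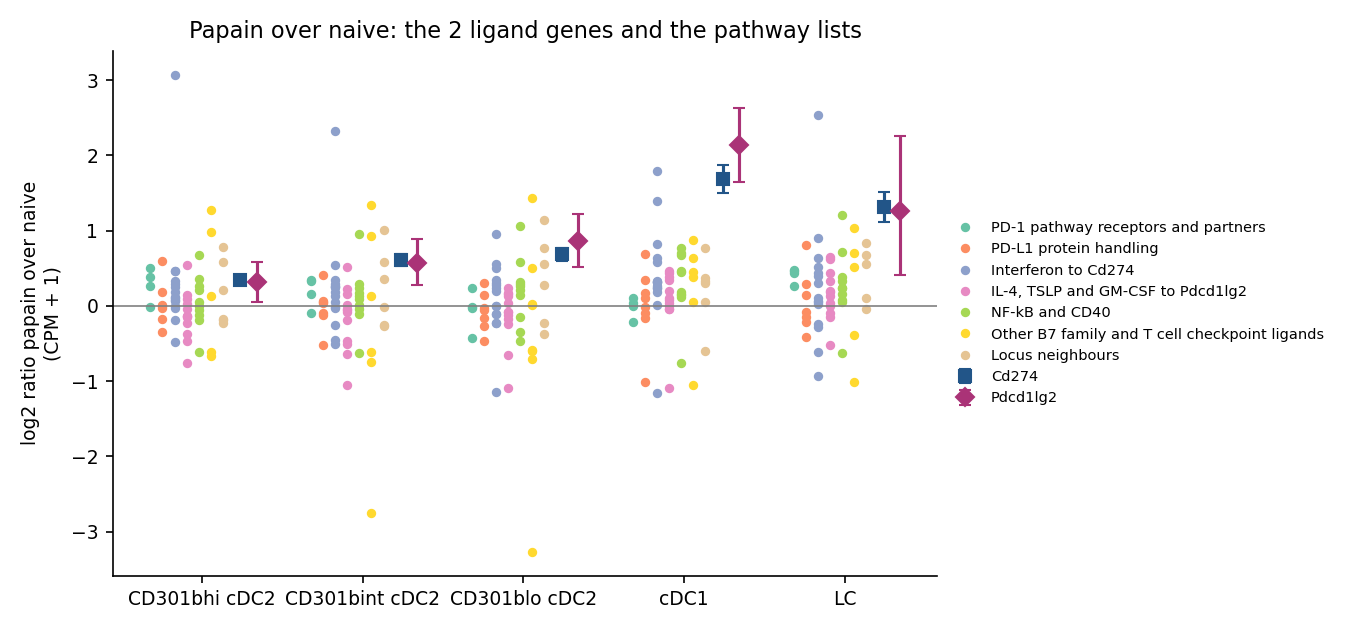
Log2 ratio of papain over naive CPM plus 1 (vertical axis) by DC class for *Cd274* (square) and *Pdcd1lg2* (diamond), with counting intervals, beside the genes of 7 fixed lists (small circles, 1 colour per list) that reached 10 CPM. In cDC1s the diamond at 2.14 stands above every list gene shown, and in CD301bhi cDC2s both symbols, at 0.35 and 0.31, lie within the cloud.

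The share of cells in which a ligand gene was seen depends on depth, and shares are therefore given as found and after thinning every cell to 8391 UMIs, the 10th percentile, leaving out shallower cells. A *Cd274* UMI was found in 73.8% (interval 70.4 to 77.0%) of naive and 87.9% (86.6 to 89.0%) of papain CD301bhi cDC2s, or 64.4% and 78.2% after thinning. In cDC1s the share was 29.6% (25.9 to 33.5%) and 68.5% (62.2 to 74.4%), thinned 20.6% and 59.0%, and in LCs 21.1% (17.4 to 25.3%) and 52.0% (48.6 to 55.3%), thinned 19.4% and 41.6%. For *Pdcd1lg2* the share was 12.3% in naive and 17.8% in papain CD301bhi cDC2s, and it was 6.92% and 25.5% in cDC1s, thinned 7.02%, 10.1%, 4.34% and 19.7%. LCs held a *Pdcd1lg2* UMI in 1.82% and 9.88% of cells, thinned 1.27% and 4.52%. Thinning left out 55 naive and 137 papain CD301bhi cDC2s, 47 and 28 cDC1s, and 127 and 110 LCs, and it kept the order of the libraries in all these classes.

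RNA set free into the droplets can give single UMIs to cells that do not make a gene, and cells without a class that held T cell transcripts served as a reference. A *Cd274* UMI was held by 31 such naive cells (13.1% of them, median 7626 UMIs) and by 28 of 241 such papain cells (11.6%, median 6980 UMIs), or 18.2% and 17.9% after thinning. Thinning left out 151 of these naive and 178 of these papain cells as too shallow. The thinned shares are thus those of the 86 and 63 deepest cells. Over all cells of this reference the *Cd274* level was 48.7 CPM in the naive and 34.7 CPM in the papain library. However, the 10% of cells with the most held 93.8% of these UMIs in either library, with up to 17 and 16 UMIs in a cell. The level thus came from few cells and not from an even spread of single UMIs. The naive cDC1 and LC levels of *Cd274* did not stand above this reference level, whereas all other class levels did. A level that rests on few cells does not measure free RNA. It therefore cannot show whether naive cDC1s and LCs make *Cd274*, and T cells can themselves express this gene. For *Pdcd1lg2* the reference was 3.02 CPM in naive and 1.07 CPM in papain cells, with a UMI in 5 and in 1 cell. Naive LCs, at 2.26 CPM, did not exceed it either, and the interval of naive cDC1s (4.64 to 7.90) overlapped that of the naive reference (1.21 to 6.21). In CPM, the papain to naive folds of both genes in cDC1s and LCs are therefore folds against naive levels not separated from this reference. By share of cells, naive cDC1s lay above it for *Cd274*, 29.6% (25.9 to 33.5%) against 13.1% (9.06 to 18.0%). Their cells were deeper, and the thinned shares were 20.6% and 18.2%. For *Pdcd1lg2* the shares were 6.92% (4.99 to 9.30%) and 2.11% (0.688 to 4.85%), thinned 4.34% and 1.85%. The intervals of naive LC shares overlapped those of the reference for both genes.

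Within a class the UMIs were spread unevenly over cells. The 10% of papain CD301bhi cDC2s with the most *Cd274* UMIs held 30.4% of them, against 38.0% in naive CD301bhi cDC2s. In naive cDC1s the top 10% of cells held 68.7% of the *Cd274* UMIs and in papain cDC1s 39.7%, and the median cDC1 went from 0 to 1 UMI. The most *Cd274* UMIs in a cell were 33, in a naive CD301bint and in a papain CD301bhi cDC2. *Pdcd1lg2* never exceeded 10 UMIs in a cell.

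Whether the 2 ligand genes were found in the same cells was examined next. Of 2024 naive cDC2s, 181 held UMIs of both genes, 30 held *Pdcd1lg2* alone and 643 neither. Among papain cDC2s 50 of 6190 cells held *Pdcd1lg2* alone and 873 neither, so that 95.4% (interval 94.0 to 96.6%) of the *Pdcd1lg2* cells also held *Cd274*, against 85.8% (80.3 to 90.2%) in the naive library. Deeper cells have more of both, and after thinning to 8391 UMIs 76.1% of naive and 87.6% of papain cDC2s with *Pdcd1lg2* held *Cd274*, compared with 56.9% and 74.9% of those without. In naive cDC1s the thinned share was 54.3% with *Pdcd1lg2* and 19.1% without, and in papain cDC1s 81.1% and 53.6%. LCs had 48.2% and 19.0% in the naive library, where only 4 cells held both, and 66.4% and 40.4% in the papain library. In every class of both libraries *Cd274* was thus found more often in cells with *Pdcd1lg2* than in cells without.

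Co-detection is symmetric, so the levels below restate it and are not a second observation. They come from the same cells, unthinned and split by a UMI of the other gene. The *Pdcd1lg2* level in papain cDC1s was 40.3 CPM (interval 32.2 to 49.7) in the 161 cells with a *Cd274* UMI and 6.58 CPM (2.42 to 14.3) in the 74 without. In naive cDC1s it was 14.1 CPM (10.3 to 18.9) in 171 cells and 1.92 CPM (0.994 to 3.36) in 407. Papain CD301bhi cDC2s had 16.6 CPM (15.5 to 17.8) with and 4.85 CPM (3.11 to 7.22) without *Cd274*, and their *Cd274* level was 368 CPM with and 257 CPM without *Pdcd1lg2*. The cells with a UMI of the other gene were the deeper ones, with medians of 12706 and 11602 UMIs in papain cDC1s.

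The thinned share of cells with both genes, divided by the product of the single shares, is 1 where the genes are found independently, and it cannot exceed 1 over the larger share. It was 1.31 in naive and 1.15 in papain cDC2s (limits 1.72 and 1.31), 2.64 and 1.37 in cDC1s (4.85 and 1.69) and 2.49 and 1.60 in LCs (5.16 and 2.4). As the limits differ, the libraries cannot be ranked by it. For *Cd274* with each other gene of at least 10 CPM, the median of this ratio was 0.994 in naive and 0.997 in papain cDC2s, with the middle 50% of genes from 0.966 to 1.02 and from 0.983 to 1.01. In cDC1s the medians were 1.01 and 1.00 over 6869 and 6596 genes. *Pdcd1lg2* lay above 99.8% or more of the genes in all 3 cell types of both libraries. When *Pdcd1lg2* was paired with each gene, *Cd274* lay above 91.6 to 99.8% of them. *Pdcd1lg2* itself was below 10 CPM in naive cDC1s (6.11 CPM) and in naive and papain LCs (2.26 and 6.81 CPM). The limit holds widely found genes nearer 1 than sparse genes, whose ratios also scatter more. These ranks are therefore a description and cannot show how unusual the pair is.

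**Figure D3:**
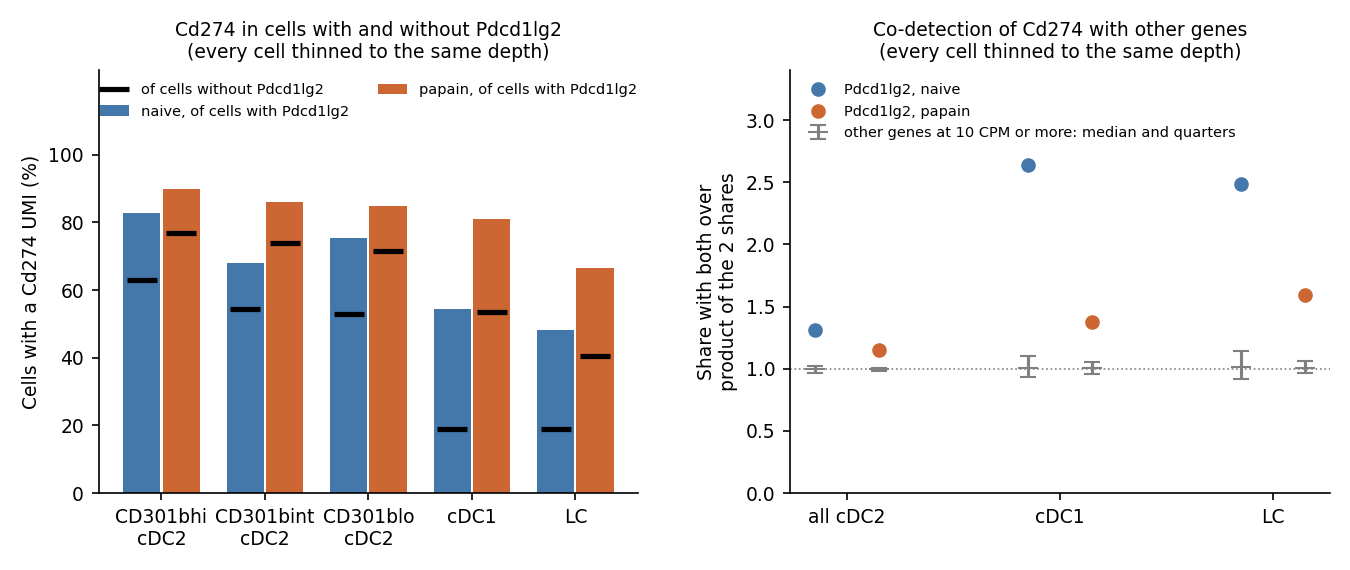
Left, percent of cells with a *Cd274* UMI among cells with *Pdcd1lg2* (bars) and without it (black lines) by class and library after thinning to 8391 UMIs. Right, share of cells with both genes over the product of the single shares for *Pdcd1lg2* (circles) and for all other genes of at least 10 CPM (grey, median and middle 50%). Each bar exceeds its line, with 54.3% against 19.1% in naive cDC1s.

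Since the study divides cDC2s by CD301b, both genes were compared along it. *Cd274* was 1.51-fold (interval 1.41 to 1.61) higher in CD301bhi than in CD301blo cDC2s of naive mice and 1.20-fold (1.15 to 1.24) higher in papain-immunized mice. For *Pdcd1lg2* the ratio was 1.29 (0.978 to 1.70) in naive mice, an interval that holds 1, and 0.854 (0.749 to 0.974) in papain-immunized mice. Only 0.763% of the genes tested in naive and 0.795% in papain cells were at least 2-fold higher in CD301bhi cells, 3.24% and 1.23% were lower, and neither ligand gene was among them. CD301blo cDC2s had fewer UMIs per cell than CD301bhi cells, with medians of 12751 against 15167 in the naive and 11351 against 16181 in the papain library.

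When the cDC2s of each library were put into 10 equal bins of the CD301b antibody value, *Cd274* was lowest in the naive bin with the least CD301b, 126 CPM (113 to 139), and highest in the one with the most, 231 CPM (215 to 248). In the papain library the first 3 bins stood between 230 and 240 CPM and the last at 312 CPM (302 to 323). *Pdcd1lg2* was also highest in the last naive bin, but the naive bins before it followed no order, and its bins ranged from 6.65 CPM (3.94 to 10.5) in bin 3 to 17.1 CPM (12.9 to 22.3) in bin 10. Its papain bins ranged from 12.9 CPM (10.8 to 15.3) in bin 6 to 18.6 CPM (16 to 21.5) in bin 3. The intervals of most neighbouring bins overlapped.

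**Figure D4:**
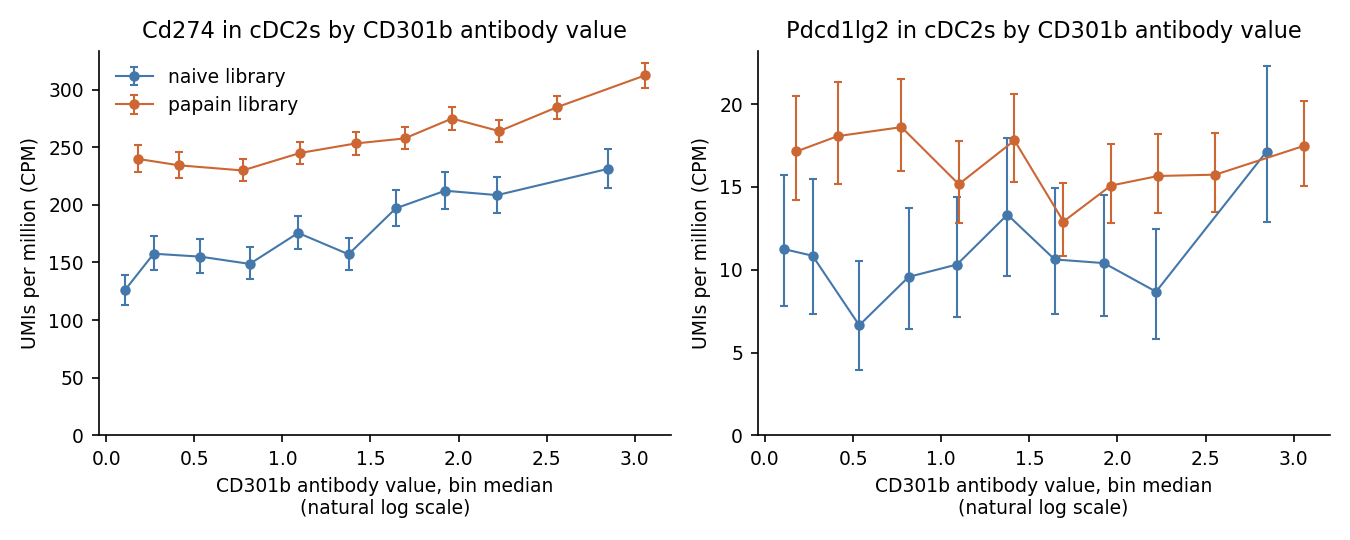
*Cd274* (left) and *Pdcd1lg2* (right) in CPM (vertical axis from 0) against the median CD301b antibody value (natural log scale) of 10 equal bins of cDC2s in the naive (blue) and papain (orange) library, with exact 95% Poisson intervals. *Cd274* runs from 126 to 231 CPM in naive and from 240 to 312 CPM in papain cells between the first and last bin, while the *Pdcd1lg2* intervals of most bins overlap.

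The authors' mRNA clusters divide the same cDC2s further, 7 naive and 9 papain clusters of at least 50 cells holding all 2024 and 6190 cells. The clusters were made from the mRNA of these cells, and the values are a description. In naive cells *Cd274* ranged from 97.2 CPM (88.6 to 106) in cluster 1.5 to 289 CPM (276 to 303) in cluster 1.2. *Pdcd1lg2* ranged from 1.87 CPM (0.809 to 3.69) in cluster 1.3 to 33.3 CPM (16.6 to 59.6) in cluster 1.6, a cluster of 55 cells with a median of 5929 UMIs. The 2 genes did not share their order. Cluster 1.2 had the most *Cd274* but only 5.14 CPM (3.52 to 7.26) of *Pdcd1lg2*, whereas cluster 1.5 with the least *Cd274* held 14.1 CPM (11 to 17.9). Cluster 1.1, the largest with 536 cells, had 202 CPM of *Cd274* and 16.8 CPM (14.4 to 19.4) of *Pdcd1lg2*.

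In papain cells *Cd274* was lowest in cluster 2.9, 97.7 CPM (86.3 to 110), and highest in cluster 2.2, 373 CPM (364 to 382), of whose cells 67.2% were CD301bhi. Cluster 2.9 was also lowest in *Pdcd1lg2*, 5.92 CPM (3.38 to 9.62), and the other 8 clusters stood between 14.1 and 20.2 CPM. Over the clusters, Pearson's r between the log2 levels of both genes was 0.21 in the naive (n = 7) and 0.84 in the papain library (n = 9), as a description of clusters that share a library and differ in depth.

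Within clusters the CD301b difference of *Cd274* was not uniform. The CD301bhi to CD301blo ratio was above 1 in 3 and below 1 in 4 of the naive clusters, ranging from 0.725 to 2.85, the latter from 4 CD301bhi cells. The naive median was 0.782, against a ratio of 1.51 over all naive cDC2s of these classes. The interval left out 1 in 2 of the naive clusters above 1 and in 1 of those below. The ratio was 1.26 (1.10 to 1.45) in cluster 1.2 and 0.743 (0.581 to 0.947) in cluster 1.3. In the papain library it was above 1 in 8 of 9 clusters, with a median of 1.13, and 5 of these intervals left out 1, while cluster 2.6 went the other way at 0.807 (0.662 to 0.980). For *Pdcd1lg2* the papain ratio was below 1 in 7 of the 8 clusters with UMIs in both classes, but only the interval of cluster 2.3, 0.466 (0.319 to 0.684), left out 1. The naive ratio was above 1 in 5 and below 1 in 2 of the 7 clusters. There only the interval of cluster 1.5, 2.67 (1.35 to 5.27), left out 1.

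**Figure D5:**
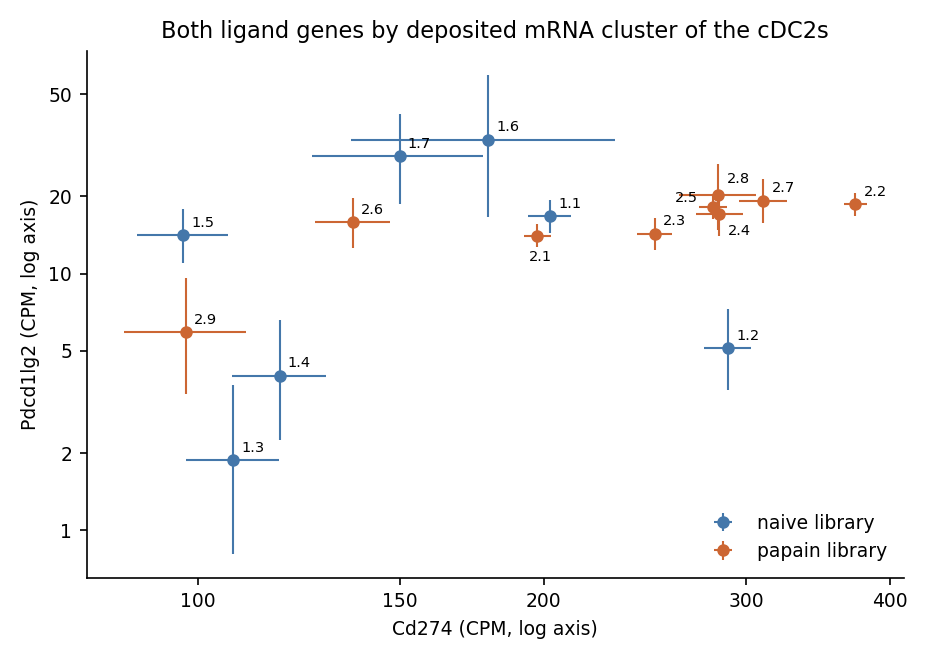
*Pdcd1lg2* against *Cd274*, both in CPM on log axes, in the authors' mRNA clusters of cDC2s (naive blue, papain orange, numbers as deposited) with exact 95% Poisson intervals. Cluster 1.2 combines 289 CPM of *Cd274* with 5.14 CPM of *Pdcd1lg2*, and all papain clusters except 2.9 lie between 14.1 and 20.2 CPM of *Pdcd1lg2*.

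Receptors and binding partners of the ligands were read from a fixed list of 7 genes, of which 4 reached 10 CPM in each class. *Pdcd1*, which encodes PD-1, was at most 0.95 CPM in any class and library. *Cd80*, whose product binds PD-L1, was highest in CD301blo cDC2s at 88.8 and 87.0 CPM in naive and papain cells and lowest in cDC1s at 24.0 and 20.5 CPM. *Rgmb*, the partner of PD-L2, stood between 25 and 44.1 CPM in all 10 groups. None of these 4 genes was 2-fold different between papain and naive cells of any class, and the median log2 ratio of the 4 tested was 0.02 in cDC1s and 0.45 in LCs, against 0.02 and 0.06 over all genes tested.

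Of 15 genes leading from interferon to *Cd274*, all were tested in cDC1s. Of these, 14 had a log2 ratio above 0, against 51.6% of all genes tested, and the median was 0.31 (0.02 over all genes). There 2 genes were at least 2-fold higher, *Irf7* (9.16 and 34.2 CPM, log2 ratio 1.79) and *Irf9* (24.1 and 64.8 CPM, 1.39), both factors of the type I interferon response. *Ifngr1*, a chain of the interferon-gamma receptor, was lower (52.8 and 23.1 CPM, -1.16). *Irf7* also was at least 2-fold higher in CD301bhi (1.14 and 17.0 CPM, 3.08) and CD301bint cDC2s (2.90 and 18.5 CPM, 2.32) and in LCs (1.69 and 14.7 CPM, 2.54), while in CD301blo cDC2s its log2 ratio was 0.96. *Irf1*, a direct activator of *Cd274*, was at 0.07 in CD301bhi cDC2s, 0.50 in CD301blo cDC2s, 0.31 in cDC1s and -0.23 in LCs. In LCs the list had a median of 0.11, with 11 of 15 genes above 0, against 55.3% of all genes tested.

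The list of IL-4, TSLP and GM-CSF signalling genes held 13 genes, of which 12 were tested in each class. In cDC1s 9 were above 0 (51.6% of all genes tested), with a median log2 ratio of 0.10, and none was 2-fold higher. In LCs 8 were above 0 (55.3% of all genes), with a median of 0.15. In CD301bhi, CD301bint and CD301blo cDC2s only 4, 4 and 5 were above 0, with medians of -0.14, -0.07 and -0.08. Of all genes tested in these cDC2s, 59.4%, 54.7% and 50.6% were above 0. *Klf4*, a transcription factor gene, was at least 2-fold lower in papain cDC1s (111 and 51.8 CPM, -1.09), CD301bint (-1.06) and CD301blo cDC2s (-1.09), though not in CD301bhi cDC2s (-0.76) or LCs (0.34). *Il4ra*, the IL-4 receptor chain, had log2 ratios between -0.00 and 0.22, and *Stat6* between -0.05 and 0.62, the highest in LCs. *Irf4*, a factor of cDC2s, stood at 47.6 to 64.7 CPM in naive and 69.7 to 78.7 CPM in papain cDC2s. In naive and papain cDC1s it was at 19.4 and 26.7 CPM, and any part of it in the *Pdcd1lg2* level was not tested.

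Among 10 NF-kB and CD40 genes, *Cd40* was at least 2-fold higher in papain CD301blo cDC2s (206 and 430 CPM, log2 ratio 1.06) and LCs (299 and 693 CPM, 1.21) and had a log2 ratio of 0.47 in cDC1s. In cDC1s 9 of the 10 genes were above 0, against 51.6% of all genes tested, with a median of 0.32, and none was 2-fold higher. *Relb*, a subunit tied to DC maturation, had log2 ratios of 0.70 in cDC1s and 0.08 in LCs. Across these lists no gene matched the log2 ratio of *Pdcd1lg2* in cDC1s.

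Genes whose products handle PD-L1 protein were also read, 12 in all, of which 8 were tested in cDC1s. *Cmtm6*, which keeps PD-L1 on the cell surface, was higher in naive cDC1s than in naive CD301bhi cDC2s (124.5 and 37.0 CPM), the contrast in which *Cd274* was lower, and it had a papain to naive log2 ratio of -0.09 in cDC1s. *Hip1r*, an adaptor in PD-L1 degradation, was at least 2-fold lower in papain cDC1s (12.2 and 5.53 CPM, -1.02). The median of the list was 0.04 in cDC1s and -0.09 in LCs.

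The genes whose level ran most like that of *Cd274* over the 10 groups of class and library were *Gm19951*, *Rbbp8*, *AC119228.1*, *Dtx2* and *Itgb1*, with Pearson's r of log2 CPM plus 1 from 0.967 to 0.989 among 3799 genes. Those most like *Pdcd1lg2* were *Stbd1*, *Efhd2*, its neighbour *Ric1*, *Ifi209* and *Rufy3*, with r from 0.953 to 0.973. The ligand genes had an r of 0.813 with each other, and *Pdcd1lg2* ranked 207th for *Cd274* and *Cd274* 117th for *Pdcd1lg2*. The 10 groups come from 2 libraries only, and r is a description.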

How the data were processed

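The members and the gene lists were chosen with earlier results of these data known. Per the labels, libraries were made with the Chromium 3' v3 kit, and the submitters' processing notes name Cell Ranger 3.0.1, Partek and mm10. Expression was deposited by the authors on a log2 scale, as log2 of CPM plus 1 in each cell. Whole UMIs could be recovered: below 50 UMIs, 100% of values lay within 0.02 of a whole number. Depth ran from 2682 to 57378 UMIs per cell. The antibody values the authors deposited are on a natural log (ln) scale, and the CD301b value was used for bins. Columns of cell class and mRNA cluster were used as deposited. The 429 naive and 290 papain cells with no entry in the antibody table had no class.

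UMIs were summed per class and library (Python 3.11.15, numpy 2.4.6, scipy 1.17.1, pandas 2.3.3). Exact 95% Poisson intervals were used for CPM, Clopper-Pearson intervals for shares, and the exact conditional binomial interval for ratios of CPM, all covering counting error only. Fixed lists and background used log2 ratios of CPM plus 1 where either group had 10 CPM or more, and called a gene past a log2 ratio of 1. Named genes were the members, list genes past 2-fold or with a described role, and the 5 genes most like each member among those of at least 10 CPM and a range of 1 log2 unit. Thinned shares are expected values over all draws. No doublet caller was run, and cells with a Cd3e or Trac UMI or of high depth were left out as alternatives. Promoter sequences are from RefSeq (GRCm38.p6), in which both genes matched. The intervals of ratios and the formula for thinning were tested on simulated data, and the other steps were not. A motif and a gene of the lists are not reported here.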

Additional observations from a re-analysis of the deposited data

Results flagged for a closer look

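For *Pdcd1lg2* the 2 libraries moved in opposite directions in a pair of contrasts. The CD301bhi to CD301blo ratio of cDC2s was 1.29 in naive and 0.854 in papain-immunized mice, and the naive interval held 1. The cDC1 to CD301bhi cDC2 ratio was 0.498 in naive and 1.96 in papain-immunized mice, and both intervals left out 1. With 1 library each, the difference between the libraries was not tested.

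Cells without a class and without a *Cd3e* or *Trac* UMI, which no comparison used, also held both genes. Among them 66.1% of 192 naive and 44.9% of 49 papain cells had a *Cd274* UMI, and 17.2% and 16.3% had a *Pdcd1lg2* UMI. The flag required only that more than 3 cells held a UMI. The median depth of the 192 naive cells was 27044 UMIs and that of the 49 papain cells 6271 UMIs.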

How the results depend on the processing

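No paired analysis was possible because each condition had 1 library. All 178 log2 ratios recomputed under the alternatives kept their direction, and 157 moved by less than counting error. The alternatives that change or drop the pseudocount are among them and cannot change a direction. The pooled log2 ratio of papain over naive, 0.79 for *Cd274* and 0.70 for *Pdcd1lg2*, moved to 0.89 and 0.88 with the mean over cells. Weighting the classes by their naive shares, an alternative chosen after seeing the data, gave 0.69 and 0.95, and papain shares gave 0.54 for *Cd274*. Scaling to the median gene gave 0.72 for *Cd274*, and a pseudocount of 10 CPM gave 0.41 for *Pdcd1lg2*. Without the deepest 5% of cells the *Cd274* ratio was 1.95 in cDC1s and 1.06 in LCs. Co-detection over the product of shares in cDC2s, 1.29 in naive and 1.12 in papain cells unthinned, was 1.53 and 1.29 with at least 2 UMIs, and 1.21 in papain cells thinned to 5000 UMIs. All 36 co-detection values stayed above 1. With all classes pooled, 124 genes were 2-fold higher and 249 lower, against 57 and 73 at 50 CPM, and 642 lower without a filter. Of the genes in cDC1s, 163 higher and 344 lower became 64 and 84 at 50 CPM and 341 and 1295 without a filter, and the counts of the other classes moved the same way. Of the 5 genes most like each member, Spearman's rho kept 3 for *Cd274* and 2 for *Pdcd1lg2*, and likeness over mRNA clusters kept 0. Depth limits *Pdcd1lg2* in naive LCs, where 12 UMIs were counted.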

Other observations

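Among 12 other B7 family and T cell checkpoint ligand genes that were listed, *Cd200*, whose product restrains myeloid cells, was at least 2-fold higher in papain than in naive cDC2s of all 3 classes, with log2 ratios of 1.27, 1.35 and 1.43 from CD301bhi to CD301blo. Its highest level was 263 CPM in papain CD301blo cDC2s. *Cd86*, the costimulatory ligand of CD28, had log2 ratios of 0.45 to 0.99 in the 5 classes. *Icosl* was at least 2-fold lower in papain cDC1s (267 and 129 CPM) and LCs (191 and 94.6 CPM), and *Pvr*, a ligand of TIGIT, was at least 2-fold higher in LCs (log2 ratio 1.03, 207 CPM in papain LCs). *Havcr2*, which encodes TIM-3, had a log2 ratio of -3.27 in CD301blo cDC2s, with 29.5 CPM in naive and 2.16 CPM in papain cells.

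Of the genes around the ligand locus, *Plgrkt* had log2 ratios of 0.37 to 0.84 and *Ric1* of 0.21 to 0.78 in the 5 classes, and *Insl6* was at least 2-fold higher in papain CD301bint and CD301blo cDC2s. *Jak2*, on the same stretch of the chromosome, was between -0.26 and 0.34, and *Uhrf2* between -0.60 and -0.04. The symbol C030046E11Rik in this list is an older name of *Ric1*.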
